A study of Homo sapiens with 2 samples.

Results

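AIM2, IFI16, CGAS, STING1, TBK1, PYCARD, CASP1, CASP4, IL18 and GSDMD encode the core of the cell's response to DNA in the cytosol and of the inflammasome. These 10 genes, of 18392 that the array measured under 1 gene name, were compared between PC3 cells given fluphenazine and PC3 cells given DMSO. Every probe set that the platform annotation assigns to 1 of them alone was used, which gave 20 probe sets of 37145. The genes were chosen on the differences between these arrays, which were already known, so their values are a description and no test was made of them.

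PC3 is an established human prostate cancer line, first grown from a tumour that had spread to bone. The control array carried RNA from cells that received the solvent DMSO. The second carried RNA from cells that received fluphenazine, an antipsychotic of the phenothiazine class and an antagonist of dopamine receptors, at 10 µM. No genetic change or other agent is named for either culture, and the labels do not state how long the cells were treated. Since each treatment has 1 array, the spread between cultures is unknown. No value below carries a replicate error, an SE or a p-value. Each difference, taken between these 2 arrays, is the log2 signal with fluphenazine minus that with DMSO.

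DNA that reaches the cytosol, from a virus or from damaged nuclei and mitochondria, is read by separate sensors. cGAS (gene CGAS) binds it and makes the messenger cGAMP, which activates STING (STING1) on the endoplasmic reticulum, and STING recruits the kinase TBK1 to switch on type I interferon genes. AIM2 binds DNA through its HIN domain and gathers the adaptor ASC (PYCARD), which clusters caspase-1 (CASP1). Caspase-1 matures IL18 and the related IL1B and cuts gasdermin D (GSDMD), whose freed end opens pores in the plasma membrane, whereas caspase-4 (CASP4) cuts gasdermin D on binding bacterial lipopolysaccharide. IFI16 is a relative of AIM2 found largely in the nucleus. Several of these genes, AIM2, IFI16 and CASP1 among them, are known to be induced by interferon.

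Start regions are shown as a description of sequence, and those printed belong to genes that were lower with fluphenazine. Why these genes were lower was not tested. RefSeq gave start windows for 5 of the 10 genes (AIM2, IFI16 with 2 starts, TBK1, PYCARD and CASP4) and none was used for CGAS, STING1, CASP1, IL18 and GSDMD. The 250 bases before the start of AIM2, IFI16 and PYCARD are printed on the gene's own strand, from GRCh38.p14, with every match to a searched motif in capitals. AIM2 lies at chr1:159076767-159077016 (minus strand), IFI16 at chr1:159008741-159008990 and chr1:159009657-159009906 (plus strand) and PYCARD at chr16:31202761-31203010 (minus strand).
AIM2: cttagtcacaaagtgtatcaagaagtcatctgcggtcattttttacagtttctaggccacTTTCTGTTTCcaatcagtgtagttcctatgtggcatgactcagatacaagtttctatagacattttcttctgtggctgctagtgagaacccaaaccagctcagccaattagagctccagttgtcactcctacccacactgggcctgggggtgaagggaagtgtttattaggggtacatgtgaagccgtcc
IFI16 first start: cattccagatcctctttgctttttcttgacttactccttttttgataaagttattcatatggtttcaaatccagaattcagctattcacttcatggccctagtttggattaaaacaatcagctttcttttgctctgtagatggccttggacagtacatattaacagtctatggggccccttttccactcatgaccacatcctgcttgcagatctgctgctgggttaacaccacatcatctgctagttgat
IFI16 second start: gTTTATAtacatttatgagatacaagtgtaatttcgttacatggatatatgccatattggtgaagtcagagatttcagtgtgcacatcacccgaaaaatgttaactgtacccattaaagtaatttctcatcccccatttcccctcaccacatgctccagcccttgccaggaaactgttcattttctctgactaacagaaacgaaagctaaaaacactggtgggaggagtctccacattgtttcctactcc
PYCARD: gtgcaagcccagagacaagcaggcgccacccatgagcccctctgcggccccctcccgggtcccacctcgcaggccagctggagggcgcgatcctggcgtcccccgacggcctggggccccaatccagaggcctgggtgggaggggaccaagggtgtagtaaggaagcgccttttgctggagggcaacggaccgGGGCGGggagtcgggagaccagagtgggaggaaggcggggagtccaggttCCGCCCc

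5 motifs were searched on both strands. They were the core of the interferon-stimulated response element (GAAA and GAAA with any 2 bases between), the gamma-activated site TTCNNNGAA, the NF-kB site, the TATA box TATAAA and the GC box GGGCGG, and no matches in these windows overlapped. The response element core was found in AIM2, on the reverse strand 190 to 181 bases before the start, and 3.02% of 35116 RefSeq windows of this length hold it. The windows of IFI16, TBK1, PYCARD and CASP4 have no match to it. GC boxes, held by 42.6% of all windows, were found in PYCARD, 57 to 52 and 7 to 2 bases before the start, and in CASP4. A TATA box match in IFI16 began 249 bases before its second start, and 10.7% of windows hold that motif. The gamma-activated site (6.57% of windows) and the NF-kB site (9.96%) matched none of the 6 windows. A match is a run of letters and does not show binding.

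The sensors AIM2, IFI16 and CGAS were lower with fluphenazine at 6 of their 7 probe sets, by very different amounts, from -0.01 for a CGAS set to -1.20 for AIM2. Of all 37145 probe sets naming 1 gene, 19023 were lower. AIM2, at its probe set 206513_at, had a log2 signal of 5.05 with DMSO and 3.85 with fluphenazine, a difference of -1.20, the largest among the 20 probe sets. Both values lay under 6.19, the median over genes of the higher of their 2 values. That median served as a floor and is a rank, not a detection call. Dim probe sets vary more, and under the floor the differences of probe sets of the same gene had a pooled SD of 0.24, against 0.13 above it. Of 5451 probe sets with a mean signal within 0.5 of that of AIM2, 3 were lower by at least as much, AIM2 itself included. AIM2 has 1 probe set, so no second reading of the transcript stands beside it.

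IFI16 was read by 3 probe sets, all above the floor and all lower. The probe set 208965_s_at went from 8.30 with DMSO to 7.57 with fluphenazine, a difference of -0.73 or 1.66-fold. The brighter sets moved little: 206332_s_at went from 10.26 to 10.09 (-0.16) and 208966_x_at from 10.31 to 10.20 (-0.11). The 3 readings agreed in direction and not in size, with an SD of 0.34 between them. An identifier ending in _s_at or _x_at marks probes that can also bind other transcripts, of the same gene or of another. Of 3553 probe sets with a signal like that of 208965_s_at, 3 were lower by at least as much, and for 208966_x_at the figure was 277 of 1412.

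CGAS was under the floor at all 3 probe sets. The highest of them, 1559051_s_at, read 5.66 with DMSO and 5.40 with fluphenazine, a difference of -0.26. The other readings were -0.01 for 242077_x_at and 0.14 for 1561708_at. These differences were close to or under the 0.24 pooled SD of dim probe sets. That SD describes probe sets of the same gene and not the spread between cultures. Whether the cGAS transcript changed cannot be told from this pair of arrays.

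AIM2 and IFI16 are neighbours on chromosome 1, in a cluster of HIN-domain genes. PYHIN1, another gene of the cluster, was under the floor at 2.78 with DMSO and 3.15 with fluphenazine. CADM3, on the far side of AIM2, was at 4.97 and 5.13, also under the floor. Neither was lower with fluphenazine.

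Downstream of cGAS, STING1 was slightly lower and TBK1 was level. STING1 has 2 probe sets. The probe set 224916_at went from 6.80 with DMSO to 6.59 with fluphenazine (-0.21) and 224929_at from 6.41 to 6.09 (-0.32). Both readings lay on the same side, the first of them 1.16-fold lower. TBK1, which phosphorylates the transcription factor IRF3, read 8.72 on both arrays at 218520_at, with a difference of 0.00.

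The adaptor and caspase-1 were lower together. PYCARD, at its probe set 221666_s_at, went from 6.45 with DMSO to 5.82 with fluphenazine, a difference of -0.64 or 1.55-fold, and its fluphenazine value lay under the floor. Of 3836 probe sets with a signal like it, 18 were lower by at least as much. This is the one probe set of PYCARD, and its identifier carries the mark for probes that can also bind other transcripts.

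CASP1 was read by 5 probe sets, 4 of them lower. The set with the highest signal, 211366_x_at, went from 6.88 with DMSO to 6.31 with fluphenazine, a difference of -0.57, just short of 1.5-fold. The probe set 209970_x_at went from 6.17 to 5.56 (-0.61), 211367_s_at from 4.94 to 3.99 (-0.94) and 211368_s_at from 6.22 to 5.92 (-0.30). The exception, 206011_at, was under the floor at 4.20 and 4.40, a difference of 0.20. Its identifier is the one among the 5 without the mark for probes that can bind other transcripts.

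CASP1 lies on chromosome 11 beside close relatives, among them CARD16, whose protein resembles the recruitment domain of caspase-1 and which is known to restrain it. A further probe set that the annotation assigns to both CASP1 and CARD16 was under the floor at 5.38 with DMSO and 5.33 with fluphenazine. The probe set of CARD16 alone read 4.85 and 4.60 (-0.26), also under the floor. How far the signals of CASP1 and CARD16 mix in the CASP1 probe sets was not tested. With the _x_at probe sets left out, an alternative chosen after the data were seen, CASP1 was at -0.30.

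CASP4 and IL18 did not follow CASP1. CASP4, the neighbour of CASP5 and CASP1, went from 8.29 with DMSO to 8.43 with fluphenazine at 209310_s_at (0.14) and from 4.11 to 3.90 at the dim 213596_at (-0.21). IL18, the cytokine that caspase-1 matures, went from 8.70 to 8.93 at 206295_at, a difference of 0.23 or 1.17-fold higher. CASP5, which lies between CASP4 and CASP1, was under the floor (3.13 and 3.21). GSDMD, the pore-forming substrate, went the other way, from 9.21 to 8.95 at 218154_at, a difference of -0.26 or 1.20-fold lower. Of 2642 probe sets with a signal like that of GSDMD, 93 were lower by at least as much, and of 2896 like IL18, 172 were higher by at least as much.

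**Figure D1:**
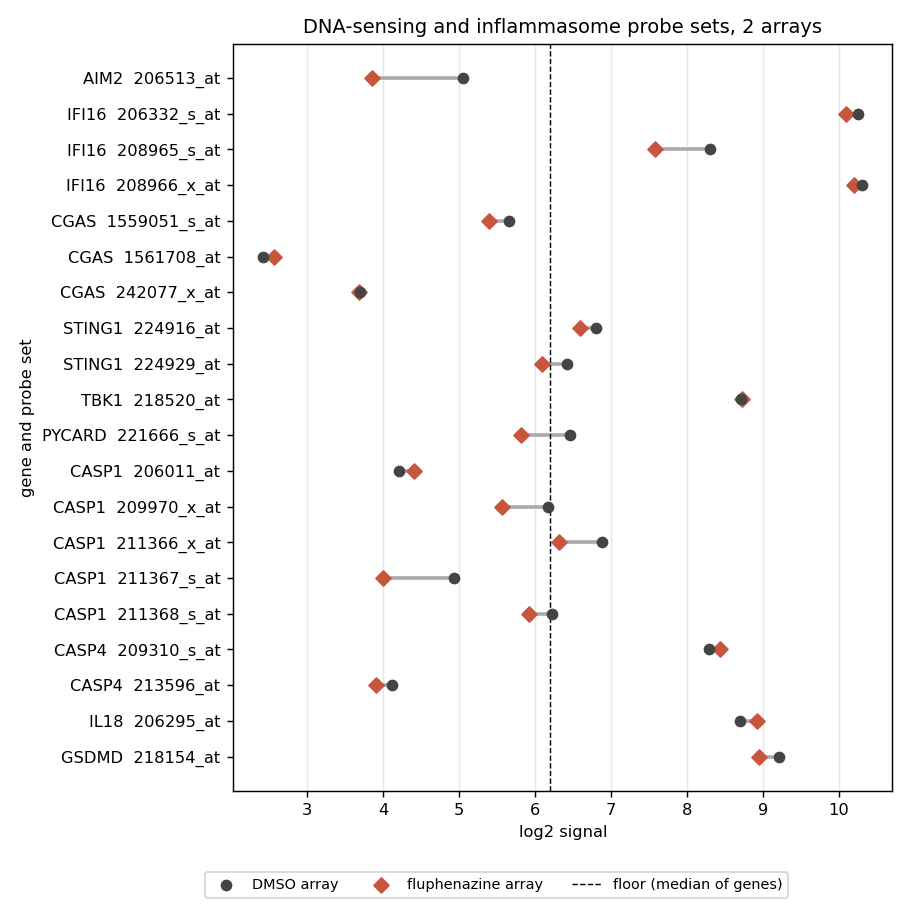
Log2 signal of the 20 probe sets of the 10 genes (horizontal axis) on the DMSO array (dark circles) and the fluphenazine array (red diamonds), with a grey line joining the readings of a probe set and the floor of 6.19 dashed. AIM2, PYCARD, all 3 IFI16 sets and 4 of 5 CASP1 sets have their fluphenazine value to the left, while TBK1, IL18 and the brighter CASP4 set do not.

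Counted together, 15 of the 20 probe sets were lower with fluphenazine and 5 higher, with a median difference of -0.23. By the same count 19023 of all 37145 probe sets were lower, with a median of -0.01. 5 of the 20 were at least 1.5-fold lower (1 each of AIM2, IFI16 and PYCARD and 2 of CASP1), where 0.953% of all probe sets were, and none was 1.5-fold higher, where 0.767% were. The genes were picked with this contrast known and several probe sets share a gene, so nothing is read from these shares.

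With each gene represented by its probe set of highest mean signal, 7 genes were lower and 3 higher. 8 of the 10 genes were above the floor, all but AIM2 and CGAS. Among those, 5 were lower and 3 higher, with a median of -0.16, and 1, PYCARD, was at least 1.5-fold lower. PYCARD passed the floor by its DMSO value alone. Over all 9196 genes above the floor the median was -0.01, 51.8% were lower, 0.294% were at least 1.5-fold lower and 0.283% at least 1.5-fold higher. The 8 genes are those that passed the floor and do not stand for all 10. Over the 10 genes the median was -0.23 and 2 were at least 1.5-fold lower, where 0.859% of all genes without a floor were (0.701% were at least 1.5-fold higher).

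**Figure D2:**
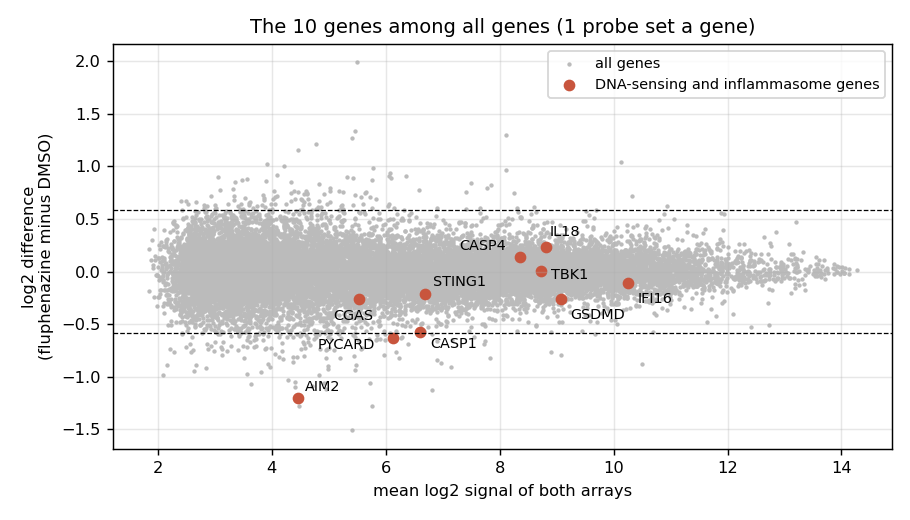
Log2 difference (fluphenazine minus DMSO, vertical axis) against the mean log2 signal of both arrays for 18392 genes, 1 probe set each (grey), with the 10 genes in red and 1.5-fold marked by dashed lines. AIM2 at -1.20 and PYCARD at -0.64 lie below the lower dashed line, CASP1 at -0.57 lies next to it, and the other 7 lie between the lines.

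The cell type and the arrays were checked with markers. The epithelial genes KRT8, KRT18, KRT19, EPCAM and CDH1 were above the floor on both arrays, at 9.28 to 12.72, whereas CTNNA1, which PC3 is known to lack, was under it (4.19 and 4.09). The basal keratin KRT5 (4.35 and 4.46) and the androgen target KLK2 (3.71 and 3.70) were also under it. KLK3, another androgen target, which PC3 is known to express little of, was above it at its brightest of 3 probe sets (6.93 and 6.90). All 9 measured markers of myeloid and lymphoid cells, which carry many inflammasome proteins, were under the floor, among them PTPRC (2.63 with DMSO and 0.48 more with fluphenazine), CD14 (3.96 with DMSO and 3.47 with fluphenazine) and CSF1R (4.92 and 4.97). The 24 probe sets for bacterial poly-A transcripts, added to the RNA as controls, all had less signal with fluphenazine, with a median difference of -0.22 (-0.34 at 5' ends and -0.12 at 3' ends). That is close in size to the differences of STING1, CGAS and GSDMD, and its part in them was not tested.

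The wider pathway was followed through lists of genes by role. Over all genes above the floor 48.2% were higher and 51.8% lower, and the counts of these small lists are a description. 24 of 29 measured partners and regulators of the STING route were above the floor, 10 higher and 14 lower, with a median of -0.05 and none past 1.5-fold. IRF3, the factor that TBK1 activates, went from 6.79 to 6.66 (-0.13) and IKBKE, the kinase most like TBK1, from 6.60 to 6.38 (-0.22). The largest differences were those of ATG9A, an autophagy protein that restrains STING traffic (-0.31), the ubiquitin ligases TRIM32 (-0.26) and TRIM38 (-0.24), and the autophagy kinase ULK1 (0.25). ULK1 passed the floor by its fluphenazine value alone (6.10 with DMSO and 6.36 with fluphenazine).

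In a list built around the removal of cytosolic DNA and cGAMP, 6 of the 8 genes above the floor were lower. Of all genes above the floor 51.8% were. Not every gene of the list removes DNA, ADAR and BANF1 being examples. The median of the list was -0.15, with no gene past 1.5-fold. SAMHD1, which breaks down the building blocks of DNA and is known to be induced by interferon, went from 10.40 to 10.04 (-0.36). Its 6 probe sets were all lower, from -0.96 to -0.28, and the 5 above the floor reached -0.59. RNASEH2A, a subunit of the enzyme that clears RNA from DNA, was at -0.30, the RNA editor ADAR at -0.24 and BANF1, which coats DNA and keeps cGAS off it, at -0.20. Each of these 3 has 1 probe set.

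Of 20 other measured inflammasome sensors and cofactors 11 were under the floor, NLRP1, NLRP3, NLRC4 and MEFV among them. The floor, being a median, put 9196 of all 18392 genes under it. NLRP3, the best studied sensor, read 5.23 with DMSO and 5.28 with fluphenazine. Of the 9 above the floor 3 were higher and 6 lower, with a median of -0.04, where 51.8% of all genes above it were lower. GBP2, an interferon-induced GTPase that helps expose bacterial lipopolysaccharide to caspase-4, was at -0.46, and its dimmer probe set at -0.17. GBP1 was at -0.35 by its brightest set, but its 3 sets ran from -0.35 to 0.50. NEK7, a partner of NLRP3, was at 0.16 and the deubiquitinase BRCC3 at -0.15.

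A list drawn up as restraining genes of the inflammasome had 7 members above the floor, 5 of them higher, and a median of 0.09. Of all genes above the floor 48.2% were higher, and nothing is read from counts this small. Whether each of them restrains it was not tested. IL37, an anti-inflammatory member of the IL1 family, was at 0.34 with a second set at -0.19. CARD6 was at -0.31, the ubiquitin ligase BIRC2 at 0.15 and TRIM16 at 0.11. Relatives of the caspases and gasdermins were split, with 3 of 5 higher and a median of 0.07. CASP10 was at -0.32, CASP2 at -0.19, CASP8 at 0.20 (its other set above the floor at -0.22) and GSDME, a gasdermin that apoptotic caspases cut, at 0.15. CASP10 passed the floor by its DMSO value alone (6.42 with DMSO and 6.10 with fluphenazine).

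The IL1 family and its receptors had 5 members above the floor, 3 of them higher, and a median of 0.11. Of all genes above the floor 48.2% were higher. IL1A was at 0.42, with a dim second set at -0.31. IL1B, the other cytokine that caspase-1 matures, went from 13.64 to 13.76 (0.11), and its second set gave 0.31. The receptor subunit IL1RAP was at 0.24 and the adaptor MYD88 at -0.03. The subunits of the IL18 receptor were under the floor (IL18R1 at 4.58 and 4.72, IL18RAP at 3.61 and 3.71). By the brightest probe set of each gene, IL1B and IL18 were on the higher side while CASP1 and PYCARD were on the lower. That IL1B difference was under 0.13, the pooled SD of probe sets of the same gene above the floor.

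Interferon-stimulated genes stood beside these as context, from a list chosen with their direction known. 17 of 20 were lower with fluphenazine, with a median of -0.37, and 2, OAS2 (-0.66) and OAS1 (-0.59), were at least 1.5-fold lower. Of all genes above the floor 51.8% were lower and 0.294% at least 1.5-fold lower. IFIT1 was at -0.57 and IFI44 at -0.57. These are the readings of the brightest probe sets. Other sets gave less, down to -0.50 for OAS2, -0.38 for OAS1 and -0.27 for IFI44, while IFIT1 has 1 set. By the brightest probe set of each gene, AIM2 (under the floor), PYCARD and CASP1 were at -0.57 or lower, and IFI16 was at -0.11. Of the other 6 members, CGAS and GSDMD were at -0.26, STING1 at -0.21, TBK1 at 0.00, CASP4 at 0.14 and IL18 at 0.23. Whether the lower members moved for the same reason was not tested.

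**Figure D3:**
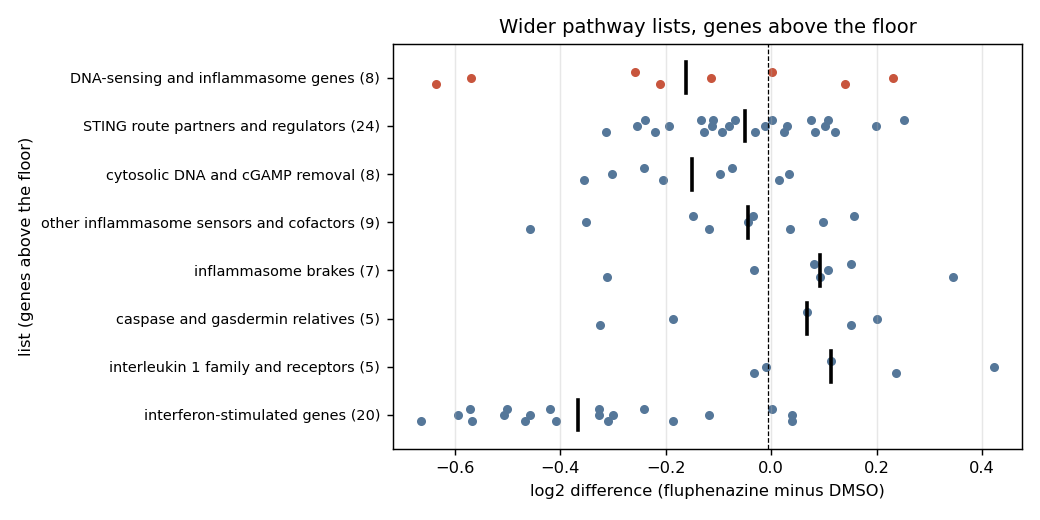
Log2 difference (fluphenazine minus DMSO) of every gene above the floor in 8 lists, 1 point a gene, with the list's median as a black bar, the number of genes in brackets and the median of all genes (-0.01) as a dashed line. The 10 genes, of which 8 are shown, spread from -0.64 to 0.23, and the interferon-stimulated genes lie mostly to the left, with a median of -0.37.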

How the data were processed

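Total RNA of PC3 cells was labelled with biotin using a whole-transcript kit and measured on 2 Affymetrix arrays, per the labels' protocols. The probe sets are those of an array read near transcripts' 3' ends, a type that kit was not made for, and the labels do not say how they were combined. The authors deposited 1 log2 signal per probe set and array. The submitters' processing notes name RMA, Transcriptome Analysis Console 3.1 and Affymetrix Expression Console 1.4, without their roles. Sorted, the arrays' values differ by at most 0.13, so a difference is relative to the other genes. Probe intensities were not used here, and the number of arrays limits the precision.

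The 47693 probe sets were joined to the platform annotation of 2016. 37145 named 1 gene, 1668 several and 8821 none, and 59 were controls. Symbols were updated through the gene identifier. A gene took its probe set of highest mean, and the floor kept 9196 of 18392 genes. Differences were computed in Python 3.11.15 with numpy 2.4.6 and pandas 2.3.3, after the procedure was tested on simulated data. The simulated shifts were placed in bright genes only, so that test does not cover dimmer genes such as AIM2, CGAS and PYCARD. The genes and lists were chosen with earlier results of these data known. The text names all probe sets of the 10 genes, up to 4 genes above the floor with the largest differences from each wider list, genes named as background, and markers. Of the interferon-stimulated genes it names 4. Some listed genes are not analysed here. Start windows are RefSeq's, for GRCh38.p14, while the files' own build is not stated in the labels. Alternatives were 3 scalings, 3 choices of probe set, 2 floors, 2 fold thresholds, the mean in place of the median and leaving out the member with the largest difference.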

Additional observations from a re-analysis of the deposited data

How the results depend on the processing

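No paired analysis was possible because there is 1 array for each treatment, and no array could be left out. Of 174 recomputed values, 155 stayed within the 0.13 pooled SD of probe sets of the same gene or, for counts, within 1.5 times. The 3 scalings moved the median of all genes by 0.0048 to 0.011. AIM2 ranged from -1.20 to -1.19 and PYCARD from -0.64 to -0.61. Each has 1 probe set, so the 3 scalings alone could move them. Values that an alternative could not change are among the 155.

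The choice of probe set mattered for 4 genes. With all sets averaged, IFI16 was at -0.34, CGAS at -0.04 and CASP4 at -0.03, and CASP1 was at -0.43 by the median of its sets above the floor. With no floor, 2 of the 10 genes were past 1.5-fold lower and 158 and 129 of all genes lower and higher, and the caspase and gasdermin relatives had a median of -0.083. With the stricter floor, PYCARD, CASP1 and STING1 no longer passed, and the median of the members left was 0.0020, the value of TBK1. With it 0 of those left were past 1.5-fold lower, and 8 and 14 of all genes were past it, fewer genes being counted. At 2-fold the counts were 0 of the members above the floor and 3 and 3 of all genes lower and higher, and at the lowest threshold tried they were 2, 237 and 247. Depth does not apply to arrays, and what limits them here is signal: AIM2 and CGAS lie where dim probe sets scatter most, and detection calls were not used here.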
